A study of Homo sapiens with 16 samples.

Results

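The regions described here are places on the hg19 genome where RNA polymerase II (Pol II) had a peak in control cells and in exactly 1 of 2 lists made after the drug merbarone. They were selected on 3 deposited lists of Pol II peaks: peaks that overlapped by at least 1 bp were merged into regions, and a region was kept if it held a control peak and a peak at 30 min or at 1 h of merbarone, but not at both. There were 9963 such regions of 104562 merged regions in all, and of 56863 regions with a control peak. They fell into 2 kinds. Regions lost at 30 min and back at 1 h numbered 5182, and regions kept at 30 min and lost at 1 h numbered 4781. "Lost", "kept" and "back" here say only whether a list held a peak, since no peak carried a height.

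The study used ChIP-seq, which sequences the DNA bound by a protein, to map Pol II and topoisomerase II alpha (TOP2A) in wild-type hTERT RPE-1, an established human retinal pigment epithelial line that telomerase keeps dividing. Every library came from this line after 48 h in 0.1% serum and fixation with 1% formaldehyde for 10 min. The control list stands for 3 untreated libraries and for 3 libraries given the DMSO vehicle for 30 min, so no vehicle library matches the longer time. The 30 min list stands for 3 libraries and the 1 h list for 2, all with merbarone at 200 µM, and the TOP2A list stands for 2 untreated libraries. The 3 IgG libraries were not analysed here. The labels do not say how the libraries of a list were combined, so values have no spread between replicates, no test between conditions could be made, and the depth behind each list is unknown.

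Pol II transcribes protein-coding genes and many non-coding RNAs, and the antibody bound the amino-terminal part of RPB1, its largest subunit, away from the tail whose phosphorylation marks the stages of transcription. As Pol II moves along DNA it overwinds the helix ahead and underwinds it behind. TOP2A relieves such twist by cutting both strands, passing another stretch of duplex through the break and sealing it, and its level is highest in dividing cells shortly before and during mitosis. Merbarone blocks this cycle before the DNA is cut, unlike drugs that trap the enzyme on cut DNA. No annotation or sequence of hg19 was used here, so no gene is assigned to a position and no sequence is shown. Positions were read as starts counted from 0 and are printed counted from 1, so they could be off by 1 bp.

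Regions that changed lists once were a minor share of control Pol II sites. Those lost at 30 min and back at 1 h made up 9.11% of control regions (8.88 to 9.35, a 95% Wilson interval), and those kept at 30 min and lost at 1 h made up 8.41% (8.18 to 8.64). All such intervals cover counting only: neighbouring regions share their libraries and are not replicates. Most control regions, 34044 or 59.9%, were in all 3 lists, and 12856 or 22.6% were in the control list alone. As background, 31.7% of control regions had no peak at 30 min and 31.0% had none at 1 h. Of the control regions without a peak at 30 min, 28.7% had one again at 1 h. Of those without a peak at 1 h, 27.1% had had one at 30 min. The 2 kinds were therefore close in number in the lists as deposited.

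The lists do not share their limits, and that bears on the counts. The control list reached down to peaks of 136 bp, the 30 min list to 150 bp and the 1 h list to 159 bp, and their median peaks were 242, 277 and 347 bp. With the limits of the 1 h list imposed on all 3, by merging across gaps of up to 37 bp and then dropping anything shorter than 159 bp, 3906 regions were lost at 30 min and back at 1 h and 2657 were kept at 30 min and lost at 1 h. The excess of regions back at 1 h was larger under these like limits than in the lists as deposited.

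Both kinds were narrow sites in control cells. The control peaks of a region summed to a median of 184 bp (quartiles 148 and 263) where the site was lost at 30 min and back at 1 h, and 191 bp (151 and 277) where it was kept at 30 min and lost at 1 h. The median was 679 bp in regions in all 3 lists and 158 bp in regions in control alone, so the 2 kinds lay near the lower end of this range. The 7 bp between them is small, and it turned round to 10 bp more in regions back at 1 h when a list had to cover 50% of the control length to count as present. Control peaks shorter than the smallest 30 min peak, 150 bp, made up 26.2% of regions lost at 30 min and back at 1 h. Control peaks shorter than the smallest 1 h peak, 159 bp, made up 30.9% of regions kept at 30 min and lost at 1 h. The counts of 3906 and 2657 under like limits leave such short control peaks out, unless joining across gaps of up to 37 bp made them long enough.

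Changing lists once was more frequent among narrow control sites than among wide ones, and so was loss at both times. Regions lost at 30 min and back at 1 h were 14.9% of control regions with under 200 bp of control peak, 15.5% of those with 200 up to 300 bp, 9.85% of those with 300 up to 500 bp and 0.865% of those with 500 bp or more. Regions kept at 30 min and lost at 1 h were 13.0%, 14.4%, 10.4% and 1.01% of the same 4 groups. Regions in control alone, lost at both times, were 49.5%, 28.9%, 7.66% and 0.181% of these groups. Of the regions with 500 bp or more, 97.9% were in all 3 lists.

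**Figure D1:**
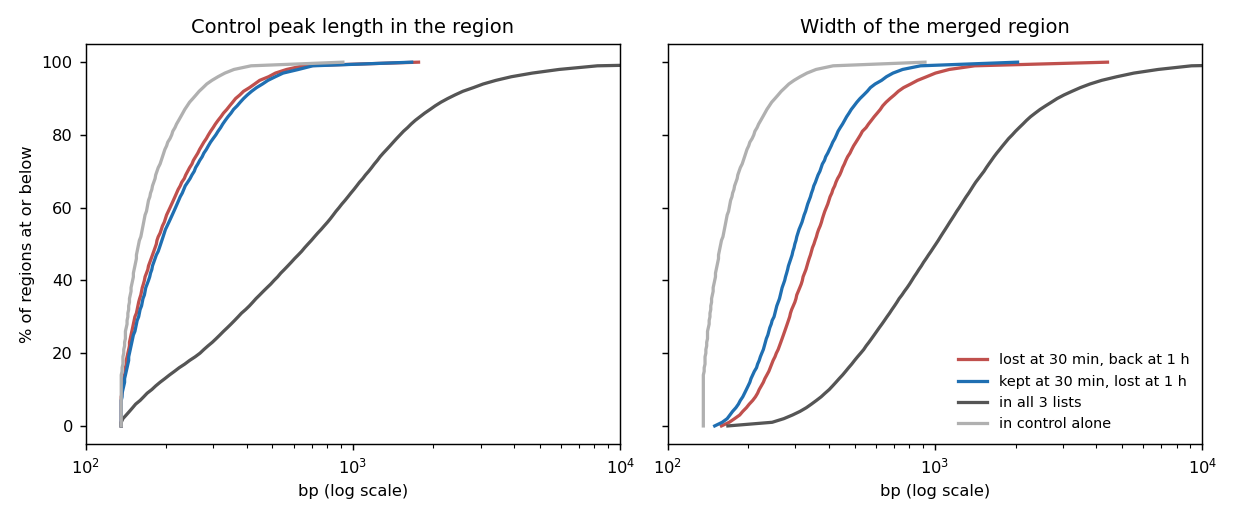
Share of regions (vertical axis, %) at or below each length (horizontal axis, bp, log scale) for the summed control peaks (left) and the merged region (right), with 1 line per kind of region. The curves of the 2 kinds nearly coincide on the left, with medians of 184 and 191 bp, and separate on the right, where the medians stand 53.5 bp apart.

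The 2 kinds differed in the length of the peak that the keeping list placed there, and that list is not the same for both. The 1 h peaks of regions back at 1 h summed to a median of 278 bp (quartiles 202 and 415), against 184 bp in control. The 30 min peaks of regions kept at 30 min summed to a median of 215 bp (171 and 308), against 191 bp in control. The ratio of kept to control length, taken region by region, had a median of 1.41 in regions back at 1 h and 1.12 in regions kept at 30 min. The kept peak was the wider one in 76.7% of regions back at 1 h and in 61.5% of regions kept at 30 min, and at least 2 times as wide in 27.5% and 10.6%. As a result the merged region was wider in the kind back at 1 h, at a median of 352.5 bp (quartiles 271 and 481), which is 53.5 bp more than in regions kept at 30 min (quartiles 237 and 397).

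The 1 h list is made of wider peaks in general, and regions in all 3 lists show how much. Their median ratio to control was 1.06 at 30 min and 1.19 at 1 h. Among those with under 200 bp in control, the length class of most members, it was 1.71 at 30 min and 2.20 at 1 h, while regions back at 1 h had 1.70 and regions kept at 30 min had 1.29 in that class. In this class, then, the kept peaks of both kinds were less widened than those of regions in all 3 lists at the same time. A higher ratio at 1 h than at 30 min was seen in regions in all 3 lists too, so it is not particular to the 2 kinds. Under like limits the median ratios were 1.24 in regions back at 1 h and 1.02 in regions kept at 30 min. The merged width was the higher in regions back at 1 h on 23 of 23 chromosomes, and so was the ratio. Both are measured on the peaks that chose the members, and every chromosome shares the same lists, so this count is a description only.

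Most of these sites were simple. In 89.8% of regions back at 1 h and 88.6% of regions kept at 30 min, 1 control peak met 1 kept peak. The keeping list covered a median of 81.9% of the control bases in regions back at 1 h and 74.5% in regions kept at 30 min. It covered all of them in 31.9% and 20.0%. Near the edge of the rule, the keeping list overlapped control by at most 10 bp in 91 regions back at 1 h and in 70 regions kept at 30 min. A peak of the list that had lost the site stood within 10 bp in 47 regions back at 1 h and in 69 regions kept at 30 min. Just outside it, 192 regions in control alone had a 1 h peak within 10 bp and 165 had a 30 min peak within 10 bp.

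The largest members show how far single sites went. The widest region back at 1 h lay at chr1:12660958-12665371, with 4414 bp under 1 h peak against 621 bp in 3 control peaks, and the nearest 30 min peak stood 3918 bp away. At chr1:2201401-2205249 the 1 h list covered 3849 bp, against 235 bp in control. At chr3:170100607-170103999 it covered 3393 bp, against 153 bp in control, a ratio of 22.2. The flanks of these sites, 5 kb on either side, were also under 1 h peaks: 8193, 7372 and 6793 bp in the order given, against 1253, 280 and 156 bp under control peaks. The 1 h list thus covered most of the surroundings of these sites as well as the sites themselves.

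Regions kept at 30 min had no gain of that size. Their 5 largest gains of length were 643 to 826 bp, while the 5 largest in regions back at 1 h were 2236 to 3793 bp. At chr7:158398721-158399651 the 30 min list covered 906 bp, against 136 bp in control. At chr13:51548799-51549616 it covered 787 bp, against 138 bp in control, and the nearest 1 h peak stood 63841 bp away. The 5 largest losses of length, kept minus control, were -657 to -492 bp in regions back at 1 h and -947 to -800 bp in regions kept at 30 min. At chr3:47461321-47462582 the 30 min list held 315 bp, against 1262 bp in control, and at chr19:39230116-39231210 it held 166 bp, against 1095 bp in control. At chr17:37049188-37050017 the 1 h list held 182 bp, against 830 bp in control.

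A few sites with long control peaks also changed lists once. The longest among regions back at 1 h lay at chr22:41826652-41828437, with 1236 bp at 1 h against 1759 bp in control, and a 30 min peak 651 bp away. The longest among regions kept at 30 min lay at chr12:109028874-109030540, with 1421 bp at 30 min against 1658 bp in control, and a 1 h peak 122 bp away. The widest region of this kind, at chr21:46186190-46188224, held 1590 bp at 30 min against 1430 bp in 5 control peaks, and a 1 h peak stood 138 bp away. In these examples the list that had lost the site still had a peak close by. Among the 5 longest in control of each kind, that gap was 149 to 948 bp in regions back at 1 h. In regions kept at 30 min it was 122 to 3420 bp, the longest at chr12:1776165-1777668.

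The neighbours of the members were examined next, to ask whether a lost site stood apart from the Pol II that remained. By the rule no member overlaps a peak of the list that had lost it, but for most the gap was short. Its median was 567 bp (quartiles 202 and 2053) in regions back at 1 h, measured to the 30 min list, and 476 bp (162 and 1733) in regions kept at 30 min, measured to the 1 h list. A peak of the list that had lost the site lay within 1 kb of 62.9% of regions back at 1 h and of 66.2% of regions kept at 30 min, a difference of -3.23 percentage points (-5.10 to -1.35). That difference turned round to 1.72 points under an overlap of 50% and to 4.37 points when single control peaks were counted in place of merged regions. Within 5 kb the shares were 85.3% and 86.3%. These gaps and shares are given for the members only, so they do not show whether short gaps are particular to them.

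**Figure D2:**
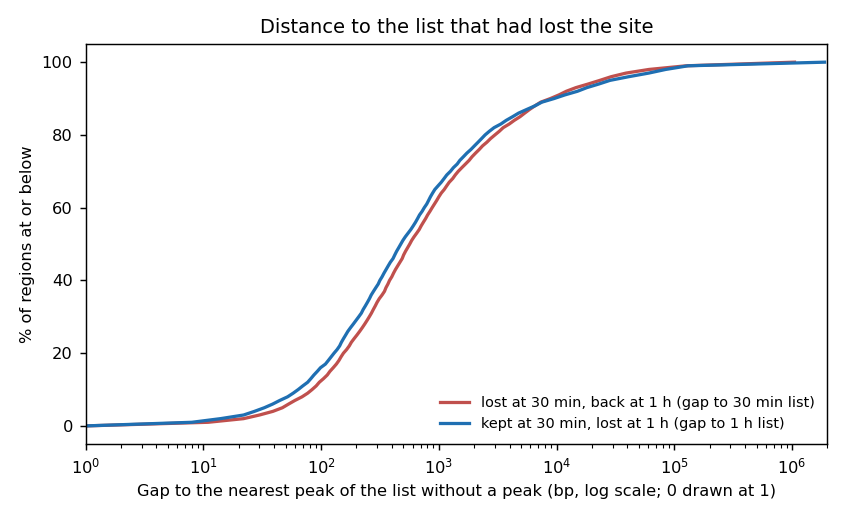
Share of regions (vertical axis, %) with a peak of the list that had lost the site at or below each gap (horizontal axis, bp, log scale), with 1 line per kind of region. The curve of regions kept at 30 min lies slightly to the left up to about 5 kb, with a median of 476 bp against 567 bp in regions back at 1 h.

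The members lay in crowded stretches of Pol II. Another region of any kind lay within 1 kb of 86.6% of regions back at 1 h and of 87.7% of regions kept at 30 min, against 79.7% of all regions and 76.8% of regions in all 3 lists. It was 78.2% in control alone, 79.8% at 30 min alone and 77.5% at 1 h alone. Regions at both merbarone times but not in control had 89.8%, so such crowding was not particular to the members. The gap to the nearest region had a median of 145.5 bp, 128 bp and 183 bp in regions back at 1 h, regions kept at 30 min and all regions. It was 142 bp in regions in all 3 lists and 229 bp in control alone. Another region lay within 200 bp of 59.3% of regions back at 1 h and 61.6% of regions kept at 30 min. In regions in all 3 lists it was 59.0%, so at short range the members were little more crowded than those. When regions were chained into domains across gaps of up to 5 kb, 76.3% of regions back at 1 h and 77.3% of regions kept at 30 min lay inside a domain with a region on either side of them, against 67.1% of all regions, 66.6% of regions in control alone and 59.9% of regions in all 3 lists. Of the 2 kinds 6.29% and 6.36% were the sole region of their domain, against 9.77% of all regions, 8.18% of regions in control alone and 16.7% of regions in all 3 lists.

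The kind of the nearest region differed between the 2 kinds. A region back at 1 h had another such region as its nearest neighbour in 10.2% of cases (9.36 to 11.0) and a region kept at 30 min and lost at 1 h in 3.86%. A region kept at 30 min had its own kind nearest in 11.8% (10.9 to 12.7) and the opposite kind in 3.99%. The 2 kinds were 4.96% and 4.57% of all regions, below the share beside their own kind and above the share beside the opposite kind. Regions found at 1 h alone, 23.8% of all regions, were nearest to 23.6% of regions back at 1 h, which is about their share, and to 8.14% of regions kept at 30 min. Regions found at 30 min alone, 13.0% of all regions, were nearest to 6.73% of regions back at 1 h and to 18.8% of regions kept at 30 min. Both were thus below their share beside sites that their list had lost. Regions in all 3 lists were nearest to 33.8% and 33.3%, close to their 32.6% of all regions. All of these come from the lists that chose the members, so they are given as a description.

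**Figure D3:**
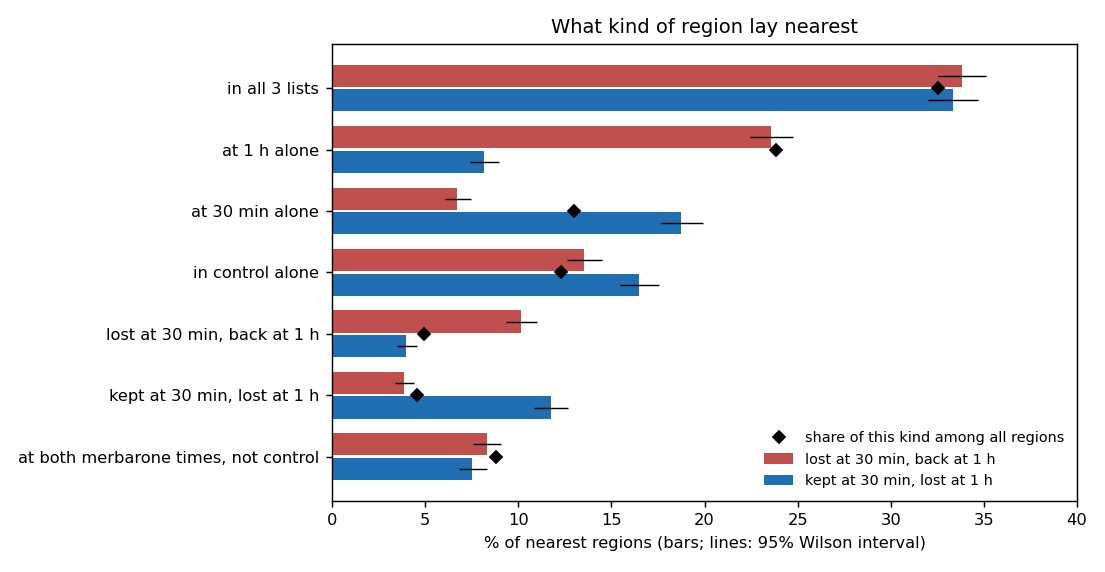
Kind of the nearest merged region (rows) as a share of regions of each kind (bars, %, with 95% Wilson intervals for counting only), and the share of that kind among all regions (diamonds). Bars for regions at 1 h alone are 23.6% and 8.14% (diamond 23.8%), for regions at 30 min alone 6.73% and 18.8% (diamond 13.0%), and each kind exceeds its diamond beside itself.

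Cover of the flanks was compared next. Within 5 kb on either side, outside the region itself, regions back at 1 h had a median of 1486.5 bp under control peaks, 1509 bp under 30 min peaks and 2757.5 bp under 1 h peaks. Regions kept at 30 min had 1565, 2064 and 1595 bp. Regions in all 3 lists had 1162, 1468 and 1893 bp, so both merbarone lists covered more than control around a typical lasting site. The flank was covered more at 30 min than in control around 47.1% of regions back at 1 h and around 64.5% of regions kept at 30 min, against 57.6% of all regions and 52.6% of regions in all 3 lists. It was covered more at 1 h than in control around 76.9% of regions back at 1 h and around 48.8% of regions kept at 30 min, against 69.2% of all regions and 64.3% of regions in all 3 lists. More cover than in control was thus common around all regions, and of the 4 shares the 48.8% lay farthest from that of all regions. Around regions in control alone the shares were 50.2% at 30 min and 55.1% at 1 h. These too were below those of all regions, so low shares were not particular to the members.

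Members were spread over many domains, with a few clusters. Regions back at 1 h lay in 3044 domains and regions kept at 30 min in 2742, of 22314 domains in all, and 859 held both. In 2205 and 1968 domains there was exactly 1 region of the kind. Of 335 domains with at least 5 members, 264 held both kinds, 38 held only regions back at 1 h and 33 held only regions kept at 30 min. Domains of 1 kind were thus 21.2% of those 335, and the share was 45.7% when gaps of up to 1 kb were joined and 14.4% with gaps of up to 10 kb. The domains named next are the 5 with the largest excess of each kind and were picked after their values were seen. Their cover includes the members, which by the rule have no peak in the list that had lost them. Domains and stretches rich in 1 kind are thus tilted toward low cover in that list, so the cover is a description only.

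The largest excess of regions back at 1 h was an 85.6 kb domain at chr5:95212394-95298027, with 35 regions back at 1 h and 0 kept at 30 min. Pol II peaks covered 41.8% of it in control, 18.9% at 30 min and 48.9% at 1 h. When the domain was cut into 3 equal stretches, the middle one held 17 of the 35, and its cover was 35.9% in control, 2.84% at 30 min and 34.3% at 1 h. In that stretch the 30 min list held almost no peaks, and the 1 h list covered about as much as control. The domain at chr2:55190470-55278925 held 21 and 0, with cover of 35.7% in control, 25.6% at 30 min and 65.0% at 1 h, and in its middle stretch 13.7%, 3.46% and 53.6%.

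The other domains rich in regions back at 1 h, taken whole and with their members included, were also covered least at 30 min and most at 1 h. At chr16:55512728-55627618 there were 19 regions back at 1 h and 0 kept at 30 min, and the control, 30 min and 1 h lists covered 47.6%, 39.6% and 81.3% of it. The stretch at low coordinates, with cover of 91.0%, 87.6% and 99.2%, held none of the 19. At chr3:124680507-124776601 there were 20 and 2, with cover of 29.5%, 25.6% and 62.9%. At chr11:19732893-20092355, a domain of 359 kb, there were 45 and 16, with cover of 17.9%, 14.0% and 29.1%, and the stretch at low coordinates was under 1 h peaks over 62.3% of its length, against 27.4% in control. In its other stretches the 1 h list did not exceed control, with 14.5% against 15.2% in the middle one, which held 9 regions back at 1 h and 11 kept at 30 min, and 10.7% against 11.1% in the last, which held 14 and 4.

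The clusters of regions kept at 30 min looked different among themselves. A pair of neighbouring domains on chromosome 18 held 0 regions back at 1 h and, of regions kept at 30 min, 39 at chr18:55307350-55386188 and 25 at chr18:55393096-55475047. Pol II peaks covered 27.8% of the first in control, 43.6% at 30 min and 11.2% at 1 h, and 23.5%, 41.8% and 14.0% of the second. At chr10:33461827-33626753 there were 6 regions back at 1 h and 46 kept at 30 min. Cover was 37.3% in control, 37.7% at 30 min and 21.3% at 1 h, and 44 of the 46 lay in the first and middle stretches, where cover at 1 h was 30.4% and 14.5%. These 3 domains were at or above control at 30 min and below it at 1 h.

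In 2 long domains most regions kept at 30 min lay in a stretch where the 1 h list covered less than control. The members in such a stretch add to that contrast by the rule. The domain of 543 kb at chr10:13673761-14216720 held 26 regions back at 1 h and 51 kept at 30 min, and as a whole the control list covered 32.2% of it, the 30 min list 40.7% and the 1 h list 45.4%. Its stretch at high coordinates held 37 of the 51, and the 3 lists in the same order covered 21.4%, 22.6% and 11.7% of it. The domain at chr3:196754351-197026757 held 16 and 45. Its middle stretch held 34 of the 45, with cover of 49.8% in control, 45.0% at 30 min and 28.8% at 1 h, while the stretch at high coordinates held 0 of them and was covered over 82.2% at 1 h. Under like limits, regions kept at 30 min in the 5 domains named for them numbered 11 to 32, against 25 to 51 as deposited, and regions back at 1 h in the other 5 numbered 13 to 39, against 19 to 45. The excess nearly went in the domain of 543 kb on chromosome 10, with 23 regions back at 1 h and 29 kept at 30 min, and was smaller in the domain at chr3:196754351-197026757, with 15 and 26. In the other 3 domains named for regions kept at 30 min, regions back at 1 h numbered 0 to 3, and in the 5 named for regions back at 1 h, regions kept at 30 min numbered 0 to 12.

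**Figure D4:**
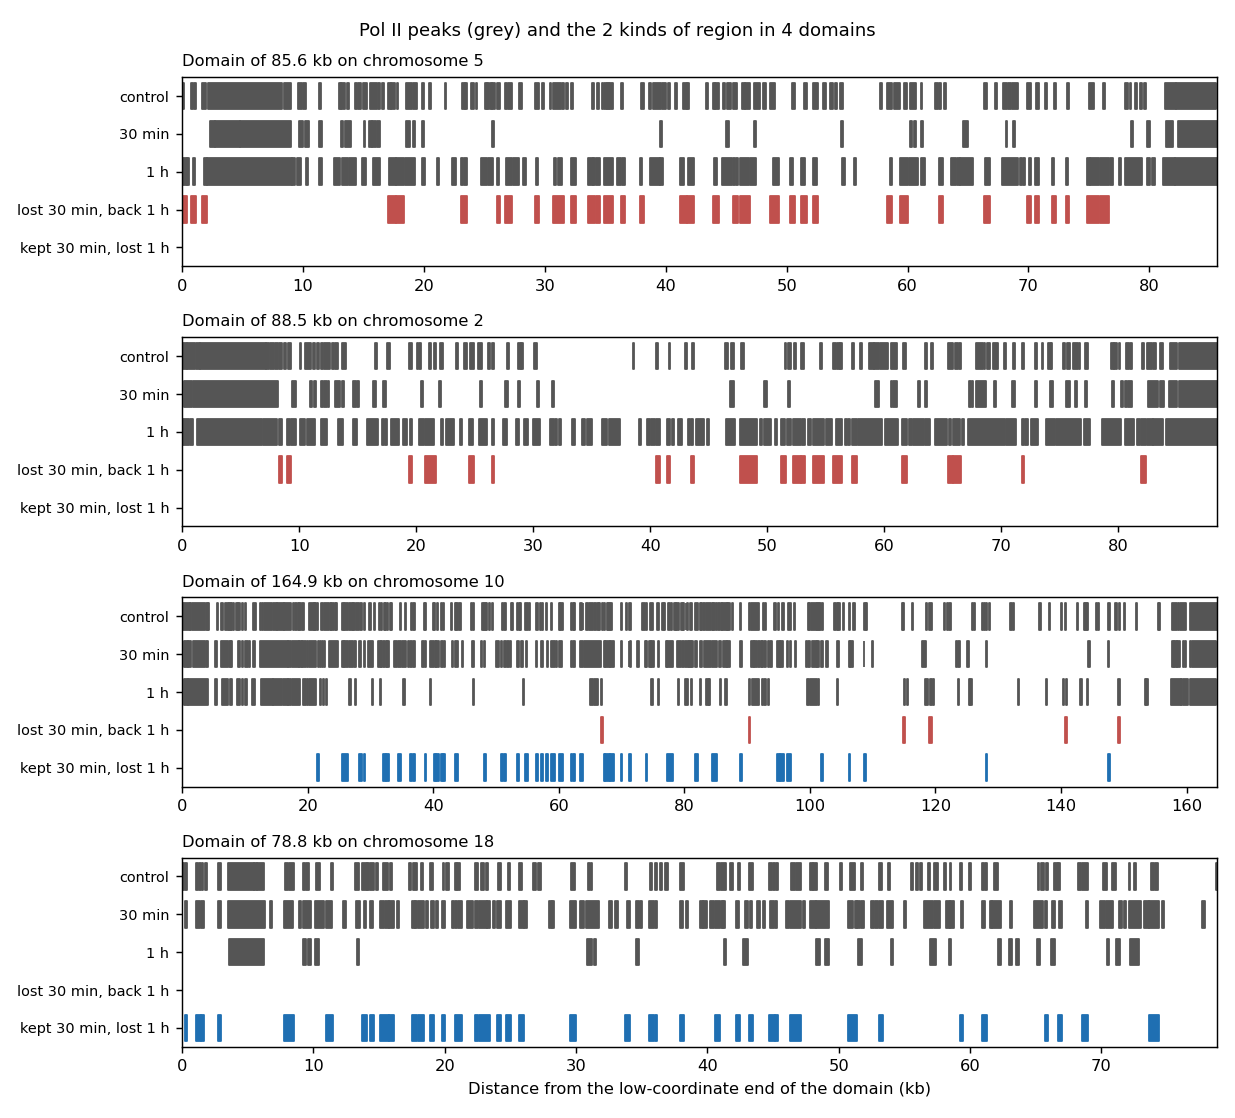
Pol II peaks of the control, 30 min and 1 h lists (grey) and the regions lost at 30 min and back at 1 h (red) or kept at 30 min and lost at 1 h (blue) along 4 of the named domains, against distance from the low-coordinate end (kb). The domains on chromosomes 5 and 2 hold 35 and 21 red regions and 0 blue, and the domains on chromosomes 10 and 18 hold 6 and 0 red and 46 and 39 blue.

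At the other extreme were sites with no Pol II around them. No other region lay within 10 kb of 238 regions back at 1 h (4.59%) and of 237 regions kept at 30 min (4.96%), against 7.08% of all regions, 5.69% of regions in control alone and 13.2% of regions in all 3 lists. The share was lower than in the members in regions at both merbarone times but not in control (2.19%), at 30 min alone (3.31%) and at 1 h alone (4.23%). The most remote from the list that had lost it, among regions back at 1 h, was chr4:135122805-135123162, with 274 bp at 1 h against 358 bp in control and the nearest 30 min peak 1050084 bp away. Among regions kept at 30 min it was chr14:48145050-48145457, with 408 bp at 30 min against 190 bp in control and the nearest 1 h peak 1889588 bp away. Of the 5 most remote regions of each kind, the control peaks were 293 to 358 bp in regions back at 1 h and 144 to 235 bp in regions kept at 30 min.

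TOP2A was the one measure that the choice of members did not use. Its peaks, 1840 in the list with a median of 87 bp, rarely met a member: 5 of 5182 regions back at 1 h (0.0965%, 0.0412 to 0.226) and 8 of 4781 regions kept at 30 min (0.167%, 0.0848 to 0.330). The difference was -0.0708 percentage points (-0.243 to 0.0825), so at these counts no difference between the 2 kinds was detectable, and the interval does not show that they are alike. Over all regions 1.14% overlapped a TOP2A peak, and of regions in all 3 lists 3.35%. Of regions in control alone 18 did, or 0.140% (0.0886 to 0.221), a share inside the intervals of both kinds.

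The share with TOP2A rose with control length in regions in all 3 lists. Longer regions offer more bases to overlap, but whether length accounts for the rise was not tested. In regions in all 3 lists the share with TOP2A was 0.178% under 200 bp of control peak, 0.323% from 200 up to 300 bp, 0.631% from 300 up to 500 bp and 5.27% at 500 bp or more. Per Mb of control peak the same classes held 11.1, 13.0, 16.1 and 31.5 regions with TOP2A, a smaller spread that still rose with length. For all values per Mb, TOP2A was counted over the whole merged region but divided by control bases only. This raises them most where merbarone peaks exceed control. Their median ratios to control were 1.71 at 30 min and 2.20 at 1 h under 200 bp, against 1.03 and 1.11 at 500 bp or more. In the same 4 classes, 3, 1, 0 and 1 regions back at 1 h met TOP2A, as did 2, 3, 1 and 2 regions kept at 30 min. The 0 of 757 allows a share of up to 0.396% by the limit of 3 counts, and up to 0.505% by the 95% Wilson interval. Under 200 bp the shares were 0.101% (0.0344 to 0.297) in regions back at 1 h, 0.0774% (0.0212 to 0.282) in regions kept at 30 min and 0.178% (0.0903 to 0.351) in regions in all 3 lists, with intervals that overlap. At 500 bp or more they were 0.549% (0.0971 to 3.05), 0.943% (0.259 to 3.37) and 5.27% (4.97 to 5.58). That class is not matched in length, since its median control length was 575.5 bp in regions back at 1 h, 605.5 bp in regions kept at 30 min and 1138 bp in regions in all 3 lists. Per Mb of control peak it held 8.69, 14.4 and 31.5 regions with TOP2A, the members' values resting on 1 and 2 regions.

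**Figure D5:**
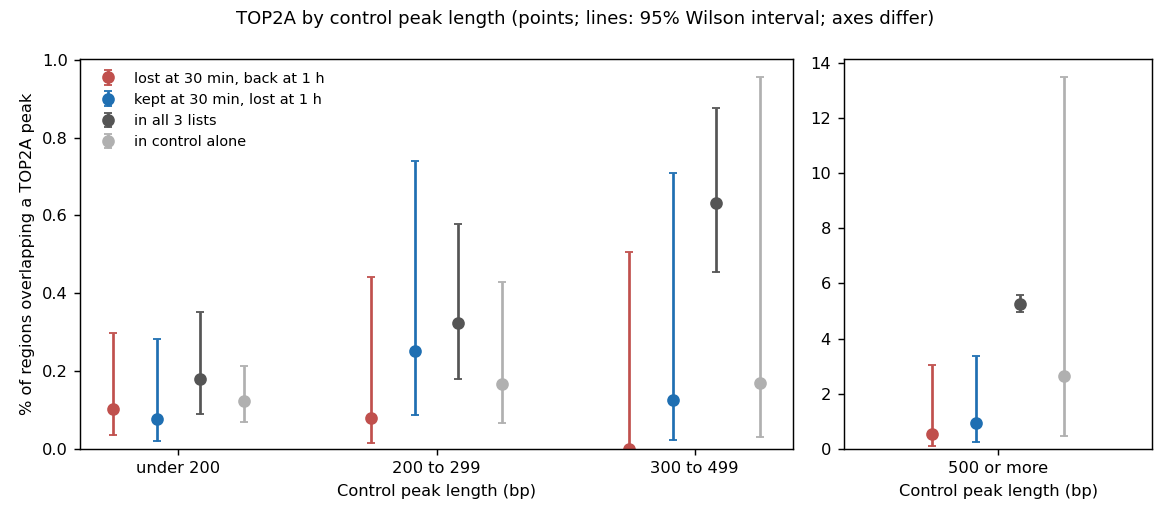
Share of regions overlapping a TOP2A peak (vertical axes, %, different scales) by length of control peak (horizontal axis, bp) for 4 kinds of region, with 95% Wilson intervals for counting only. The intervals of the 2 kinds overlap in every class, and only at 500 bp or more do they lie wholly below that of regions in all 3 lists, which is 4.97 to 5.58%, in a class where the members are shorter (medians of 575.5 and 605.5 bp against 1138 bp).

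In wider windows, which count the overlaps again, the shares of the members were below that of regions in all 3 lists. A TOP2A peak lay within 1 kb of 0.733% of regions back at 1 h and 0.627% of regions kept at 30 min, against 3.85% of regions in all 3 lists. Over all regions it was 1.61%, and in regions in control alone 0.685%. Within 5 kb the shares were 2.62% in regions back at 1 h and 2.43% in regions kept at 30 min, against 5.47% in regions in all 3 lists, 3.42% in all regions and 2.57% in regions in control alone. The shares of the members were close to those of regions in control alone. Of 1862 regions in all 3 lists with TOP2A within 5 kb, 1140 overlapped it. In regions back at 1 h it was 5 of 136, and in regions kept at 30 min 8 of 116. The median distance to TOP2A was 283332 bp, 269196 bp and 304540 bp in regions back at 1 h, regions kept at 30 min and regions in all 3 lists. The lower shares thus do not show less TOP2A around the members. The members that met TOP2A each held 1 TOP2A peak, and 3 of the 5 back at 1 h and 4 of the 8 kept at 30 min were the sole region of their domain. Among those that met TOP2A was chr12:6887794-6888364, back at 1 h, with 359 bp at 1 h against 571 bp in control and no 30 min peak for 5164 bp. Another was chr2:10219194-10219902, kept at 30 min, with 265 bp at 30 min against 709 bp in control and no 1 h peak for 23154 bp. At chr1:184006117-184006869, kept at 30 min, the 30 min list held 581 bp against 566 bp in control, and a 1 h peak stood 137 bp away.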

How the data were processed

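Pol II and TOP2A ChIP-seq libraries were aligned with Bowtie 1.2.0 to hg19, with MACS2 and deepTools 2.4.1 also named, per the submitters' processing notes. The labels give no MACS2 version or threshold. The authors deposited peak positions in bp without scores, as 1 list for each condition. Depth is unknown.

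Peaks of the 3 Pol II lists overlapping by at least 1 bp were merged (touching peaks were not). Gaps, cover of 5 kb flanks, domains (gaps of up to 5 kb) and shares with 95% Wilson or Newcombe intervals were computed in Python 3.11.15 (numpy 2.4.6, pandas 2.3.3, statsmodels 0.14.6). No test was run, since the lists chose the members and have no replicates. The functions were tested on simulated data.

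The members and lists were chosen with earlier results of these data known. Named regions are, per kind, among the 5 widest, longest in control, farthest from the missing list, with the largest gain or fall of length, and widest with TOP2A. Alternatives changed list limits, smallest width, overlap, joining, counting unit and windows. IgG libraries were not analysed here.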

Additional observations from a re-analysis of the deposited data

How the results depend on the processing

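Regions lost at 30 min and back at 1 h outnumbered those kept at 30 min and lost at 1 h under every alternative that gave a value. Their merged width, though not their control length, was also the larger under every alternative that gave one. The counts themselves depended on what counts as a peak. Differences below are regions back at 1 h minus regions kept at 30 min, as deposited -7 bp of control peak, 53.5 bp of merged width, -3.23 points with the missing list within 1 kb, -1.12 points with another region within 1 kb and -0.0708 points with TOP2A. Under like limits the counts were 3906 and 2657, control peaks differed by -14 bp, merged widths by 38 bp and another region near by 1.35 points. With peaks of at least 300 bp only, the counts were 1791 and 923 and these differences -14 bp, 78 bp and 2.97 points, with TOP2A at -0.633 points. Asking for 50% overlap reversed the control difference to 10 bp and that of the missing list to 1.72 points, with merged widths at 125 bp. Joining within 100 bp gave -13 bp of control peak. Joining within 1 kb gave 1659 and 1459 regions, -22 bp and 74 bp, and could give no value for neighbours within 1 kb. Single control peaks gave 10110 and 6783, reversed the missing-list difference to 4.37 points, and have no merged width or neighbouring region. The missing list within 5 kb differed by -1.02 points. TOP2A differed by 0.106 points within 1 kb, 0.198 within 5 kb and -0.394 in control peaks of 500 bp or more. The cause of each change was not tested. No paired analysis was possible because each condition has 1 list. Unknown depth and 5 and 8 regions with TOP2A limit all statements on TOP2A.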

Other observations

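The balance of the 2 kinds varied between chromosomes. Regions back at 1 h were the more numerous on 15 of 23 chromosomes and the fewer on 8. Chromosome 20 had 182 regions back at 1 h and 91 kept at 30 min, 11.1% and 5.55% of its control regions, and chromosome 16 had 275 and 180, or 10.3% and 6.74%. Chromosome 18 had 56 and 98, or 7.43% and 13.0%, and chromosome 15 had 128 and 193, or 7.34% and 11.1%. The pair of domains on chromosome 18 named above held 39 and 25 of its 98 regions kept at 30 min. Chromosome 15 held none of the 10 domains named.

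Some regions that count as being in all 3 lists had almost no control base under 1 of the merbarone lists, because other peaks of the region linked them. At most 10 bp of control peak lay under the 30 min list in 895 such regions, 794 of them with no base at all. At most 10 bp lay under the 1 h list in 444, 356 of them with no base at all. They were kept out of both kinds by the rule.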
